A study of Homo sapiens with 4 samples.

Results

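CHI3L1, LBP and 7 further secreted proteins of the acute phase and innate immunity were followed in U87 cells, an established human glioma line. The 9 genes were CHI3L1, CHI3L2, LBP, PTX3, LCN2, SERPINA3, C1R, C1S and C3. A probe set, the group of array probes that reports on a transcript, was taken when the array's annotation named exactly 1 gene and that gene was on this list. All 9 genes were found, of 18304 genes named in this way, through 13 of the 41930 probe sets in the table. CHI3L1 had 3 probe sets, LBP and C1S had 2 each, and the other 6 genes had 1 each. The list was chosen on the measured log2 differences of these same arrays, among which those of CHI3L1 and LBP were some of the most negative. The differences of the 13 probe sets between the groups are therefore given as a description. Where they fall in the fit over all probe sets is stated once, as a count that is no evidence about these genes.

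The study compared 4 single-colour arrays, 1 per RNA sample, from U87 cells labelled as a knockdown of QK, the RNA-binding product of QKI. In 2 samples the cells had also been transduced with miR-20a, which belongs to the miR-17 family of microRNAs, and in the other 2 with miR-NT, a microRNA of scrambled sequence without an intended target. All 4 samples carried the knockdown, so every difference below is one between knockdown cultures. The labels give neither the vector and promoter of the microRNAs nor the means of the knockdown, nor whether the lines were clones or the samples of a group separate cultures. The p-values therefore measure no more than how these samples vary, and that variation may be technical.

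Acute-phase proteins are plasma and tissue proteins whose synthesis rises in inflammation, in the liver mainly under the cytokines IL-6 and IL-1, which act through STAT3, C/EBP factors and NF-kB. Several of them are also made by astrocytes and glioma cells. CHI3L1 (YKL-40) and CHI3L2 belong to the chitinase family but have lost the enzyme activity, and CHI3L1 is secreted by many gliomas of the mesenchymal type. LBP carries bacterial lipopolysaccharide to CD14, PTX3 and LCN2 act in innate defence, SERPINA3 inhibits serine proteases, and C1R, C1S and C3 belong to the complement cascade.

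The labels name miR-20a without a strand, and the 5p strand was taken. This microRNA, which one group received in place of miR-NT, is shown first. Its mature sequence, from RefSeq (GRCh38.p14, chr13:91351072-91351094, plus strand), is written with its seed, bases 2 to 8, in capitals.
hsa-miR-20a-5p: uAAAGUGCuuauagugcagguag
This seed is shared by 8 mature human microRNAs of the table, among them hsa-miR-17-5p, hsa-miR-93-5p and hsa-miR-106b-5p. The level of the microRNA itself was not analysed here.

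CHI3L1 by 209396_s_at and 209395_at was about 1 log2 unit lower on the miR-20a arrays, and its paralog CHI3L2 was not. The 250 bases before the start of these 2 genes are shown for that reason. Both come from RefSeq (GRCh38.p14), CHI3L1 at chr1:203186705-203186954 on the minus strand and CHI3L2, at the first of its 2 listed starts, at chr1:111227409-111227658 on the plus strand. They run 5′ to 3′, with matches to any of 4 motifs in capitals.
CHI3L1: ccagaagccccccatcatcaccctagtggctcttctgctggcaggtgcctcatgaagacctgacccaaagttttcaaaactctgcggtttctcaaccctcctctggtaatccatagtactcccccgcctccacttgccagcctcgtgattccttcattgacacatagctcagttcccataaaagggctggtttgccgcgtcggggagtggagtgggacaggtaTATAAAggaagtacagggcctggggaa
CHI3L2: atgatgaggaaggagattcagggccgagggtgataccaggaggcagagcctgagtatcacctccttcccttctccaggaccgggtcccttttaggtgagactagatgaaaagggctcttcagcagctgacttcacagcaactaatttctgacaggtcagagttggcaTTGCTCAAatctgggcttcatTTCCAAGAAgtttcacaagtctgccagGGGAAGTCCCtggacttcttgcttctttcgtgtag
The motifs, searched on both strands, were the TATA box TATAAA, the STAT motif TTCNNNGAA, the C/EBP core TTGCNNAA and the NF-kB motif. Of 35116 promoters of this length in the table, 10.7% held the first, 6.57% the STAT motif, 9.05% the C/EBP core and 9.96% the NF-kB motif. In the window of CHI3L1 the search found 1 TATA box, beginning at position -27 from the start, and none of the other 3 motifs. The window of CHI3L2 held 1 match each to the C/EBP core at -83, the STAT motif at -62 and the NF-kB motif at -35, and no TATA box. These motifs do not overlap each other there. Among the other genes with an entry, PTX3 and LCN2 held C/EBP and NF-kB matches, C1R a C/EBP match at both of its starts and a STAT match at one of them, and SERPINA3 none of the 4 motifs. LBP, C1S and C3 had no entry. A match is a description of these letters and not evidence of binding. The part of the motifs in the differences between the groups was not tested.

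CHI3L1 and LBP stood apart from the other 7 genes. Their 4 strongest-changing probe sets were lower on both miR-20a arrays by about 1 log2 unit, and the next difference in size was that of PTX3, at -0.45. The values are the authors' log2 levels, and differences are miR-20a minus miR-NT with the standard error (SE) of a linear model fitted with limma to 41920 probe sets. Of the 13 probe sets, 11 had a lower and 2 a higher mean with miR-20a, and of all probe sets 55.3% had a lower mean. The median difference of the 13 was -0.22, against -0.02 over all probe sets. In bulk RNA, fewer cells that express a gene and less RNA per cell cannot be told apart.

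CHI3L1 was read by 2 probe sets with concordant values and by another with a small difference. Probe set 209396_s_at was at 13.49 and 13.51 on the miR-NT arrays and at 12.44 and 12.32 on the miR-20a arrays. The groups were separated by 1.05 log2 units, against ranges of 0.02 and 0.12 within the groups. The difference was -1.12 ± 0.09 (SE, n = 2 each), a 2.18-fold lower level. Probe set 209395_at was at 12.77 and 12.90 with miR-NT and at 11.75 and 11.64 with miR-20a, a difference of -1.14 ± 0.10 or 2.20-fold. Both miR-20a arrays again lay below both miR-NT arrays, by 1.02 units or more. Probe set 216546_s_at behaved otherwise, at 8.11 and 8.03 with miR-NT and 7.75 and 8.04 with miR-20a. Here miR-20a replicate 2 reached the level of miR-NT replicate 2, and the difference was -0.18 ± 0.12. The mean of the 3 CHI3L1 probe sets differed by -0.81 ± 0.07 (SE).

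CHI3L2, the closest relative of CHI3L1 on the list, showed no such difference. Its probe set was at 8.03 and 8.16 with miR-NT and at 8.09 and 8.01 with miR-20a. The arrays of the groups were interleaved, and the difference was -0.04 ± 0.10 (SE, n = 2 each). The sign was not stable: without miR-NT replicate 2 the difference was 0.02.

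LBP, the carrier that hands lipopolysaccharide to CD14, was lower by both of its probe sets. Probe set 211652_s_at was at 12.43 and 12.37 with miR-NT and at 11.36 on both miR-20a arrays. The gap between the groups was 1.01 log2 units, and the miR-20a arrays differed from each other by only 0.005. The difference was -1.04 ± 0.09 (SE, n = 2 each), a 2.06-fold lower level. Probe set 214461_at was at 12.34 and 12.38 with miR-NT and at 11.42 and 11.33 with miR-20a, with a difference of -0.98 ± 0.09 or 1.97-fold. Unlike CHI3L1, LBP thus had no probe set that departed from the rest.

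**Figure D1:**
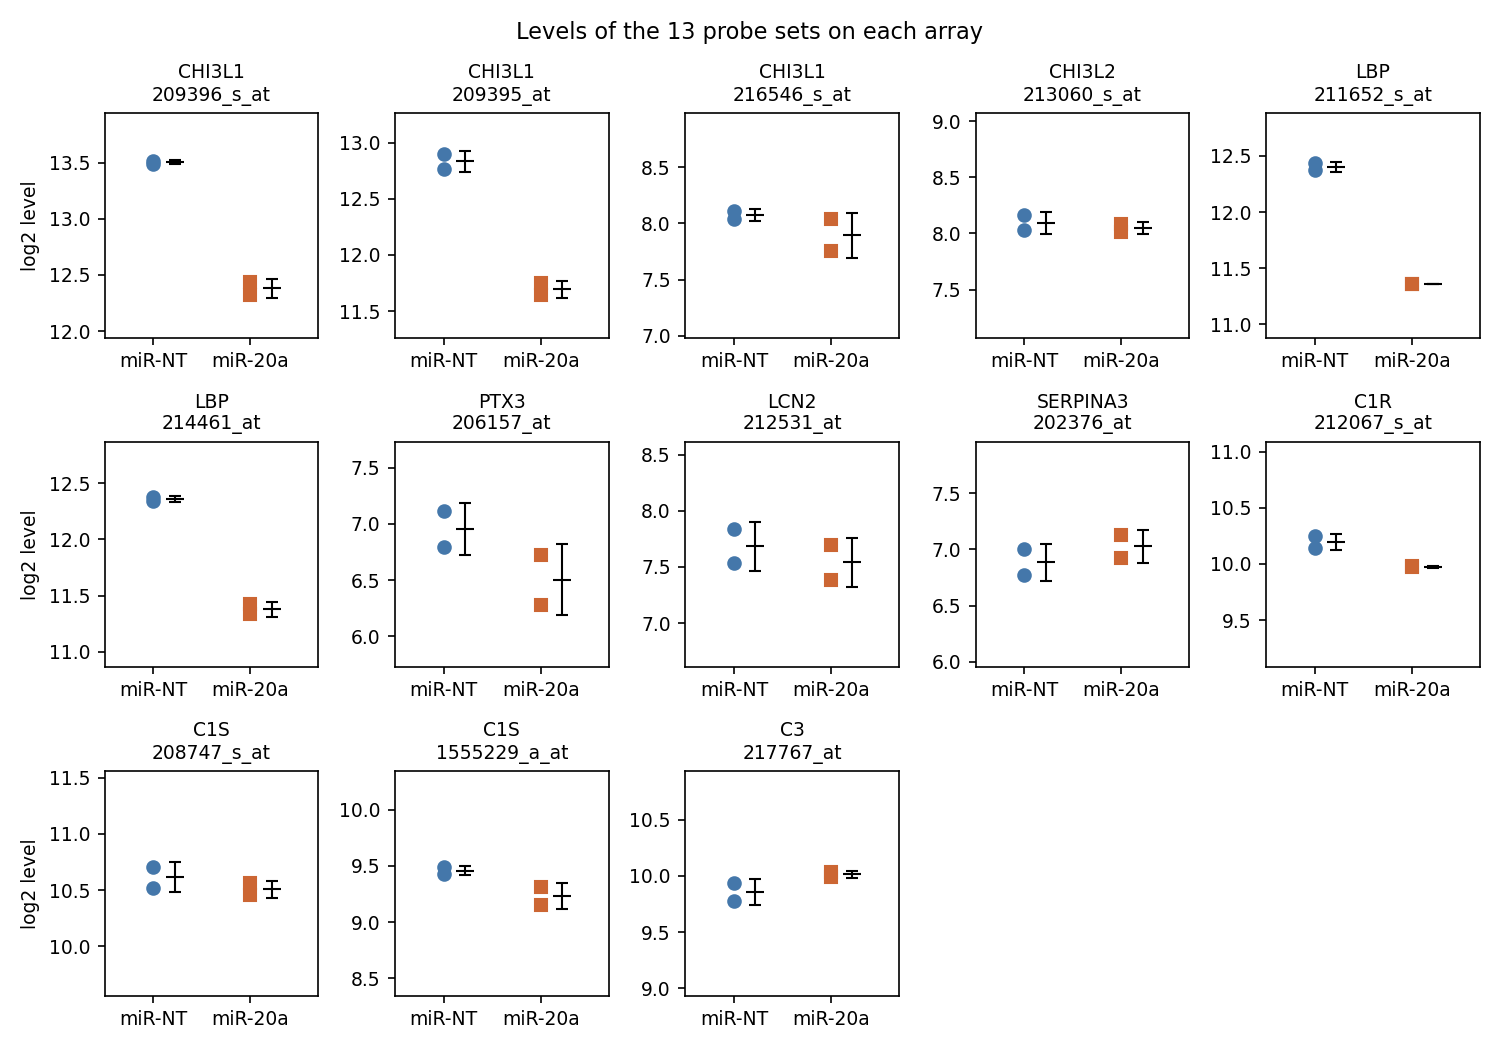
Log2 level of each of the 13 probe sets on each array, with miR-NT arrays as circles and miR-20a arrays as squares; the dash and bar beside each group are its mean ± SD (n = 2), and every panel spans 2 log2 units on its own axis. CHI3L1 by 209396_s_at and 209395_at and LBP by both probe sets lie about 1 unit lower with miR-20a, while CHI3L2 and LCN2 overlap.

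The innate defence proteins had smaller or overlapping differences. PTX3, a long pentraxin that binds microbes and the complement protein C1q, was at 6.79 and 7.12 with miR-NT and at 6.72 and 6.28 with miR-20a. The groups did not overlap, but the gap of 0.07 was small beside ranges of 0.33 and 0.45 within the groups. The difference of -0.45 ± 0.17 (SE, n = 2 each) had the largest SE of the 13 probe sets, and leaving out single arrays moved it between -0.68 and -0.23. LCN2, which withholds iron by binding bacterial siderophores, was at 7.84 and 7.53 with miR-NT and at 7.38 and 7.70 with miR-20a. These arrays were interleaved, with a difference of -0.14 ± 0.15, which turned to 0.01 without miR-NT replicate 1 or without miR-20a replicate 1. SERPINA3, or alpha-1-antichymotrypsin, was at 7.0 and 6.77 with miR-NT and at 6.92 and 7.13 with miR-20a. Its groups overlapped too, and its difference of 0.14 ± 0.12 was one of the 2 positive ones.

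The complement genes differed little and not all in the same direction. C1R, a protease of the C1 complex that starts the classical pathway, was at 10.25 and 10.14 with miR-NT and at 9.98 and 9.97 with miR-20a. Both miR-20a arrays were lower, by 0.16 or more, and the difference was -0.22 ± 0.09 (SE, n = 2 each). C1S, the protease that C1R activates, had a difference of -0.23 ± 0.10 by 1555229_a_at, with 9.43 and 9.49 against 9.15 and 9.31. By its other probe set, 208747_s_at, C1S was at 10.71 and 10.52 against 10.56 and 10.45, and these groups overlapped with a difference of -0.11 ± 0.10. C3, the component on which all complement pathways converge, was slightly higher on both miR-20a arrays, at 10.04 and 9.99 against 9.94 and 9.77. Its difference was 0.16 ± 0.10, and 0.04 after quantile normalization.

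**Figure D2:**
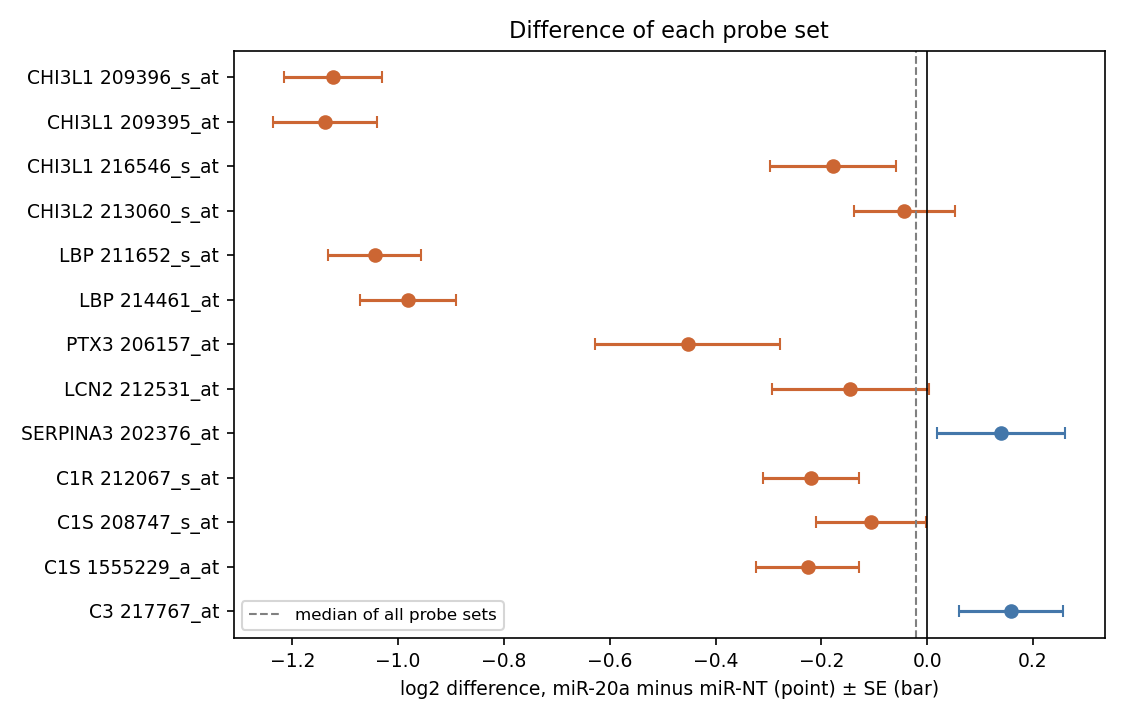
Log2 difference (miR-20a minus miR-NT) of each of the 13 probe sets, as a point with a bar of ± 1 SE from the fit over 41920 probe sets; orange marks negative and blue positive differences, and the dashed line is the median of all probe sets. The 2 concordant probe sets of CHI3L1 and both of LBP lie near -1, and all others between -0.45 and 0.16.

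In the fit over all probe sets, 4 of the 13, those of CHI3L1 and LBP near -1, lay past an adjusted p of 0.05 (limma, Benjamini-Hochberg over 41920 probe sets) in the lower direction and 0 in the higher. The background was 0.0167% of all probe sets lower, 7 in number, and 0.119% higher. At an unadjusted p under 0.05, 6 of the 13 were lower and 0 higher, against 8.40% and 9.46% of all probe sets. Since these genes were chosen on that contrast, the counts were fixed in part by the choice and nothing is read from them. With the replicate number as a block, none of the 4 was past the threshold (limma adjusted p = 0.358 for each). The differences were the same, because this block cannot change them. Leaving out miR-NT replicate 1 or replicate 2 also left 0 of the 13 past it (limma, lowest adjusted p 0.377 and 0.304), while 2 were past it when miR-20a replicate 1 was dropped and 4 when replicate 2 was. In each of these fits 1 group is a single array, assumed to vary like the other group. The differences themselves moved little: without miR-NT replicate 1 they were -1.14 and -1.20 for CHI3L1 and -1.014 and -1.002 for LBP, and without miR-NT replicate 2 they were -1.11 and -1.07 for CHI3L1 and -1.07 and -0.96 for LBP. The groups did not overlap in 7 of the 13 probe sets with miR-20a lower and in 1, that of C3, with miR-20a higher. Over all probe sets these shares were 27.2% and 21.7%, so arrays that do not overlap are common in this comparison. Only 2 probe sets in the table had a more negative difference than CHI3L1 by 209395_at.

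Over the whole table, differences varied with signal level. Of 18304 genes, each represented by its probe set with the highest mean, the 4576 with the highest levels had a median difference of 0.10, and 31.3% of them had a lower mean with miR-20a. Among the 4576 with the lowest levels the median was -0.05 and 64.6% had a lower mean. CHI3L1 and LBP are both in the group of highest levels. The part of this variation with level in the differences of the 9 genes was not tested.

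**Figure D3:**
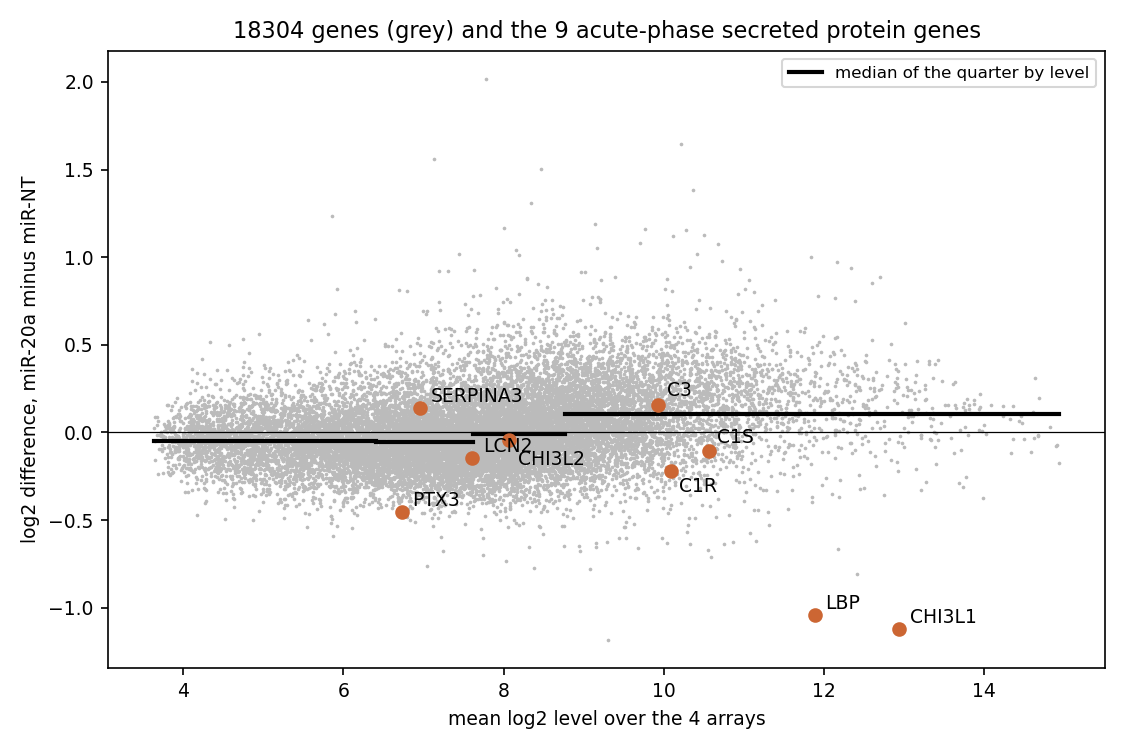
Mean log2 level over the 4 arrays (x axis) against log2 difference, miR-20a minus miR-NT (y axis), for 18304 genes as grey points and the 9 named genes as orange points; black lines are the medians of 4 equal groups of genes by level, which run from -0.05 to 0.10. CHI3L1 and LBP lie at -1.12 and -1.04 at the right of the plot.

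The array-wide quality values bear on all of these differences and are given once. QKI, knocked down in every sample, was at 9.18 and 9.38 with miR-NT and at 9.53 and 9.38 with miR-20a, by its probe set of highest mean (limma adjusted p = 0.45). Of its 10 probe sets 4 had a higher and 6 a lower mean with miR-20a, with differences from -0.43 to 0.18, so they gave no single direction. Without an array of cells that lack the knockdown, these levels cannot show its extent. The array medians lay between 6.97 and 7.01 and the arrays correlated at 0.991 to 0.996 in pairs. For the ACTB control probe sets, the 3′ level exceeded the 5′ level, a margin that grows as RNA degrades, by 0.20 and 0.35 with miR-NT and 0.52 and 0.46 with miR-20a. The margin of GAPDH was 0.22 on both miR-NT arrays, and 0.27 and 0.28 with miR-20a. Their part in the differences of CHI3L1, LBP and the other genes was not tested. VIM, an intermediate filament gene of glioma lines, was at 14.63 to 14.70 on the 4 arrays, and the astrocyte marker GFAP at 6.94 to 7.33. Of 9 astrocyte and glioma line markers, 6 had lower means with miR-20a, where 53.0% of all genes did. Of the 9 markers 0 passed the threshold or an unadjusted p under 0.05 (limma), the latter against 8.33% of all genes lower and 11.8% higher. The groups did not overlap for 3 that were lower, SLC1A3 at -0.20, NES at -0.21 and SLC1A2 at -0.17, and for CD44, which was higher at 0.18. Over all genes the groups did not overlap for 27.0% with miR-20a lower and 25.5% with it higher. The sign held in 1 of 2 probe sets of SLC1A3, 2 of 2 of NES, 4 of 4 of SLC1A2 and 4 of 13 of CD44. The files hold no detection calls, so neither presence nor absence of a low signal can be stated.

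Lists of other cell types were checked for the same comparison. None of 8 macrophage, 8 neutrophil, 9 hepatocyte and 6 endothelial markers passed the threshold (limma), with 2, 0, 0 and 1 at an unadjusted p under 0.05 in turn, against 8.33% of all genes lower and 11.8% higher. The summed log2 level of the macrophage markers ran from 53.7 to 53.7 with miR-NT and from 52.8 to 54.5 with miR-20a, and that of the hepatocyte markers from 62.5 to 63.1 and from 62.1 to 63.3. The neutrophil markers had a lower mean in 8 of 8 cases, with sums of 46.4 to 46.9 and 45.3 to 45.4, and the endothelial markers in 5 of 6, with sums of 41.5 to 41.6 and 40.9 to 40.9, where 53.0% of all genes had a lower mean. Of the neutrophil markers 7 of 8, and of the endothelial markers 4 of 6, had a mean level below the median of all probe sets. A lower mean was also found for 64.6% of the 4576 genes of lowest level and 64.1% of the next 4576. The part of these markers in the CHI3L1 and LBP differences was not tested.

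The genes whose 4 array values were most like those of CHI3L1 and LBP were found by distance, after each gene was centred on its own mean. Each of these 2 genes was the nearest of all 18304 to the other, at a Euclidean distance of 0.13 log2 units over 4 arrays. Next to CHI3L1 came SCD, a fatty acid desaturase, at 0.33, TMEFF2, a transmembrane protein, at 0.38, SLCO4A1, an organic anion transporter, at 0.40, and the nuclear pore gene NUP210 at 0.40. Next to LBP came SCD at 0.27, the olfactomedin-like gene OLFML2A at 0.29, NUP210 at 0.29 and SLCO4A1 at 0.29. Each of these had miR-20a arrays below both miR-NT arrays, with differences of -0.81 for SCD, -1.18 for TMEFF2, -0.78 for OLFML2A, -0.77 for SLCO4A1 and -0.76 for NUP210. PTX3 was the closest of the other 7 listed genes, at 0.74 from CHI3L1, rank 195 in that order, and C1R was next at 0.91. SERPINA3 and C3 were the farthest, at 1.30 and 1.29. Distances over 4 arrays mostly restate the difference between the groups, so this order is a description.

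Other genes of the same pathways were counted from 6 lists, which are not independent of earlier results of these arrays. With 1 probe set per gene, 123 genes were measured, and with limma 0 passed an adjusted p under 0.05 in either direction, against 0.0109% of all genes lower and 0.153% higher. With an unadjusted p below 0.05 there were 18 lower and 12 higher genes, against 8.33% and 11.8% of all genes. In fits with other settings up to 6 of the 123 passed, the most with a mean-variance trend and robust estimation. These were 5 lower and 1 higher. That fit also called far more of all 41920 probe sets, 957 (174 lower, 783 higher) against 57 in the main fit.

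Acute-phase plasma proteins mostly had lower means, yet none passed the test. Of 17 measured, 14 were below and 3 above their miR-NT mean, with a median difference of -0.19 against -0.01 over all genes, where 53.0% were lower. With an unadjusted limma p below 0.05 there were 5 lower and 0 higher genes, against 8.33% and 11.8% of all genes. The groups did not overlap for 9 of the 17 with miR-20a lower and 1 with it higher, against 27.0% and 25.5% of all genes. The 4 with the smallest p were the copper carrier gene CP at -0.39 ± 0.10 (SE), the protease inhibitor gene A2M at -0.35 ± 0.09, TIMP1, an inhibitor of matrix metalloproteinases, at -0.33 ± 0.09 and the fibrinogen chain gene FGG at -0.40 ± 0.12. Their limma adjusted p-values were between 0.155 and 0.181. TIMP1, at 13.39 and 13.37 against 13.01 and 13.10, passed only with the trended robust fit (limma adjusted p = 0.040). CP had this sign in only 2 of its 4 probe sets and A2M in 2 of 2. Of the 17 genes, 9 had a mean level below the median of all probe sets, where differences were on the whole negative, and the median of the list was -0.07 when the lowest 40% of probe sets were left out. Over the settings tried this median lay between -0.25 and -0.07. All reuse the same arrays, and the replicate block and the trended robust fit cannot change it.

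Complement genes outside the list of 9 had a median difference of -0.13. Of 30 measured, 21 had lower and 9 higher means, where 53.0% of all genes were lower. Of the 30, 18 had a mean level below the median of all probe sets, where differences were on the whole negative. The median of the list was -0.14 when the lowest 40% of probe sets were left out. An unadjusted limma p below 0.05 was found for 5 lower and 3 higher genes, against 8.33% and 11.8% of all genes. CLU, or clusterin, a secreted chaperone that also restrains the terminal complement complex, was at 11.48 and 11.46 with miR-NT and at 10.79 and 10.90 with miR-20a. Its difference was -0.62 ± 0.09 (SE), all 4 of its probe sets were lower, and its limma adjusted p was 0.0985. That p lay between 0.012 and 0.64 in other fits, and CLU passed at 0.05 after quantile normalization, with low probe sets left out and with the trended robust fit. C6, a component of the membrane attack complex, had a difference of -0.44 ± 0.09 (limma adjusted p = 0.136). The other 2 of the 4 smallest p-values in the list belonged to genes with higher means. CD46, a cofactor for C3b cleavage, had a difference of 0.28 ± 0.09 and CD55, which dissociates C3 convertases, of 0.29 ± 0.09 (limma adjusted p = 0.197 and 0.203), each with 3 of 3 probe sets higher.

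Genes around CHI3L1 and LBP went both ways. Of 11 chitinase family members and reported CHI3L1 receptors, 7 had lower and 4 higher means, where 53.0% of all genes were lower. Their median was -0.01. An unadjusted limma p below 0.05 was found for 0 lower and 2 higher, against 8.33% and 11.8% of all genes. LGALS3, or galectin-3, had a difference of 0.35 ± 0.10 (SE), IL13RA2, an IL-13 receptor chain that binds CHI3L1, of 0.28 ± 0.10, and the chitinase gene CHIT1 of -0.25 ± 0.11. The hyaluronan receptor CD44 had a difference of 0.18 ± 0.10, but no more than 4 of its 13 probe sets were higher. The limma adjusted p-values of these 4 genes were between 0.180 and 0.364. Of 11 genes of the LBP family and the lipopolysaccharide receptor pathway, 6 had lower and 5 higher means. For 2 lower and 2 higher of them the unadjusted limma p was below 0.05, beside the same shares of all genes. PLTP, the phospholipid transfer protein and a structural relative of LBP, was at 11.01 and 10.77 with miR-NT and at 10.25 and 10.19 with miR-20a. Its difference was -0.67 ± 0.11 (limma adjusted p = 0.110). It passed only when low probe sets were left out, with the trended robust fit and when probe sets were averaged per gene. With the replicate block its limma adjusted p was 0.358. PLTP has 1 probe set, so averaging changed the fit around it and not its difference. LY96, the MD-2 subunit of the lipopolysaccharide receptor, had a difference of 0.48 ± 0.15, the adaptor gene TRAF6 of -0.28 ± 0.09 and CETP, another relative of LBP, of 0.26 ± 0.10. None of these 3 passed the threshold (limma adjusted p between 0.197 and 0.258).

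The inducers of the acute phase showed no shared direction. Of 32 cytokine, receptor, STAT, C/EBP and NF-kB genes, 15 had lower and 17 higher means, with a median of 0.01. Of all genes, 53.0% had a lower mean. An unadjusted limma p below 0.05 was found for 4 lower and 5 higher genes, against 8.33% and 11.8% of all genes. CEBPD, a C/EBP factor induced in inflammation, was at 9.84 and 9.94 with miR-NT and at 9.35 and 9.39 with miR-20a, a difference of -0.52 ± 0.09 (SE, limma adjusted p = 0.119). Its other probe set differed by only -0.02, and CEBPD passed only with low probe sets left out and with the trended robust fit. IL6ST, the shared receptor chain gp130 of the IL-6 family, had the opposite sign, at 9.866 and 9.996 against 10.40 and 10.39. Its difference was 0.46 ± 0.09, with 6 of 7 probe sets higher (limma adjusted p = 0.136). IL11 and OSM, cytokines that signal through IL6ST, had differences of -0.41 ± 0.09 and -0.41 ± 0.09 (limma adjusted p = 0.138 and 0.140). The second probe set of IL11 was at 0.09. IL6ST and IL11 passed only with the trended robust fit.

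The families of SERPINA3, PTX3 and LCN2 had small differences. Of 22 clade A serpins, pentraxins, lipocalins and LCN2 partners, 14 had lower and 8 higher means, with a median of -0.08. Of the 22, 12 had a mean level below the median of all probe sets, where differences were on the whole negative. Of all genes, 53.0% had a lower mean. An unadjusted limma p below 0.05 was found for 2 lower and 0 higher genes, against 8.33% and 11.8% of all genes. The lipocalin gene LCN12 had a difference of -0.28 ± 0.09 (SE), SLC22A17, a receptor of LCN2, of -0.25 ± 0.10, SERPINA10 of -0.20 ± 0.12 and PTGDS, a lipocalin-type prostaglandin synthase, of -0.16 ± 0.09. Their limma adjusted p-values were between 0.193 and 0.420. SLC22A17 was lower by 2 of 2 probe sets and PTGDS by 2 of 3, with the highest at 0.14. When probe sets were averaged per gene, PTGDS was at -0.02.

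**Figure D4:**
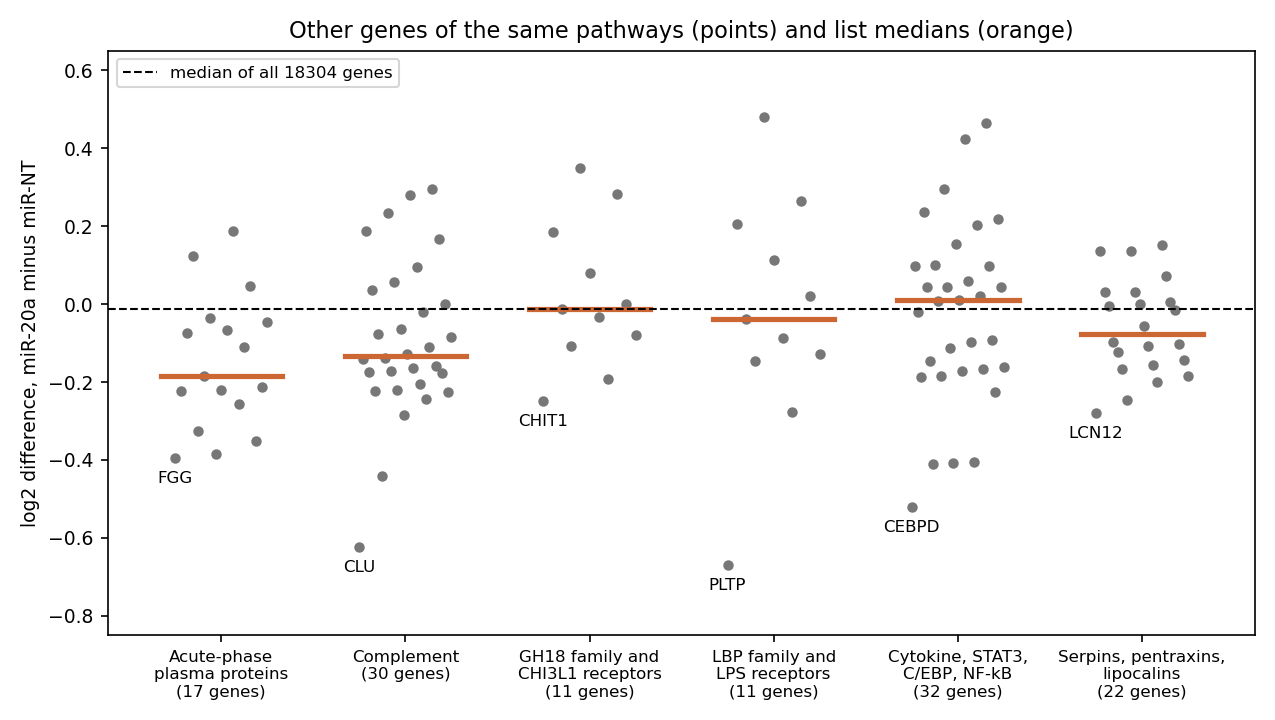
Log2 difference (miR-20a minus miR-NT) of each gene of the 6 pathway lists as grey points, 1 probe set per gene, with the list median in orange, the median of all 18304 genes as a dashed line and the lowest gene of each list named. List medians lie between -0.19 and 0.01, and the lowest single gene is PLTP at -0.67.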

How the data were processed

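RNA of 4 samples was hybridised to 1 single-colour array each. The authors deposited log2 levels, 1 per probe set and array. Of software, the submitters' processing notes list affy, an R package. How background was corrected and how arrays were normalized and summarized is not given in the sources used here. That the scale is log2 follows from the range of the deposited values. GEO's platform annotation supplied the gene names, which were looked up by Entrez number in RefSeq's gene table, and 37465 probe sets named 1 gene. Control probe sets were left out.

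The groups were compared by a linear model with a term for group, fitted with limma 3.58.1 (lmFit, eBayes; R 4.3.3) over 41920 probe sets, with two-sided p-values adjusted by the Benjamini-Hochberg method. With 2 arrays a group, an exact permutation test cannot go below p = 0.333, and precision is limited by having so few arrays. Genes with several probe sets were represented in lists by the one with the highest mean. The fit was tested on simulated arrays with known changes added, whose variation was independent between arrays and did not depend on level. That test cannot show how the fit behaves where samples share variation. The 9 genes and all lists were chosen with earlier results of these data known. Named genes were the 9, QKI, the 4 of each list with the smallest p and any past the threshold, and the 5 nearest by pattern. Other settings tried were quantile normalization, centring on the median, a replicate block, a filter on low levels, a trended robust fit, another threshold, other ways of joining probe sets and leaving out each array. Same-numbered arrays deviated from their group means with a correlation of -0.12 over probe sets, so the numbers were not taken as pairs.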

Additional observations from a re-analysis of the deposited data

Results flagged for a closer look

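Control probe sets outside the comparison differed between the groups. The 3′ minus 5′ difference of ACTB was 0.486 log2 units on the miR-20a arrays, against 0.272 on the miR-NT arrays, and that of GAPDH 0.275 against 0.222 (means, n = 2 each). For neither control did the groups overlap. With 2 arrays a group this is common: among single probe sets the groups did not overlap for 27.2% with miR-20a lower and 21.7% with it higher.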

How the results depend on the processing

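CHI3L1 by 209396_s_at and 209395_at and LBP by both probe sets had a negative difference under every setting tried. The replicate blocks and the trended robust fit cannot change a difference. Since these genes were chosen for their differences on the same arrays, the stable sign is a description. After quantile normalization the differences were -1.21 and -1.29 for CHI3L1 and -1.19 and -1.13 for LBP (211652_s_at and 214461_at), and the median of the 13 probe sets was -0.31. With each array centred on its median, LBP by 211652_s_at was at -1.01. When all probe sets of a gene were averaged, CHI3L1 was at -0.81 and LBP at -1.01, and CD44 turned to -0.04. Leaving out single arrays moved the median of the 13 between -0.30 and -0.16. Of 57 probe sets past the threshold (50 higher, 7 lower), counts after quantile normalization were 13 lower, with low levels left out 334 (269 higher, 65 lower), with the trended robust fit 957 (783 higher, 174 lower), at a threshold of 0.10 159 (132 higher, 27 lower), and with 1 probe set per gene 11 lower. Leaving out single arrays gave 0 to 66 past the threshold, 0 to 59 higher and 0 to 7 lower. With a replicate block, which uses the shared replicate numbers, 0 passed (0 higher, 0 lower), and with the crossed pairing, added after seeing the data, 0 passed as well. Among the pathway lists, lower calls numbered 1 after quantile normalization, 3 with low levels left out, 5 with the trended robust fit, 1 at a threshold of 0.10 and 1 with averaged probe sets, and higher calls 1 with the trended robust fit. Some of these settings had fewer arrays, fewer degrees of freedom or fewer probe sets to test. The cause of the shifts was not tested. Without detection calls, low signals such as those of FGG, C6 and LCN12 cannot be separated from background.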
